A study of Homo sapiens with 32 samples.

Results

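The 7 genes described here are 6 nuclear receptors, ESR1, PGR, NR3C1, NR2F2, RARA and VDR, and GREB1, a well-known target of the estrogen receptor. They were chosen by name from the 35238 genes of the deposited table, and all 7 passed the filter on low values. The 32 bulk RNA sequencing libraries come from 4 human endometrial cancer lines, each given 4 treatments in 2 replicates. Ishikawa is labelled CTNNB1-wildtype, and Ishikawa-S33Y, SNGM and HEC265 are labelled CTNNB1-mutated, CTNNB1 being the gene for beta-catenin. Cells received vehicle (0.1% DMSO), paclitaxel, which stabilises microtubules, SM08502, an inhibitor of the CDC-like kinases that phosphorylate splicing factors, or both drugs, for 24 h in medium with 5 to 20% serum. Paclitaxel was given at 11 nM to Ishikawa, 6 nM to Ishikawa-S33Y, 11.7 nM to SNGM and 5.6 nM to HEC265. SM08502 was given at 80 nM, 85 nM, 350.7 nM and 149 nM in the same order, so the lines were not compared at 1 dose. With 1 wildtype line, genotype and line cannot be told apart, and the labels do not say how Ishikawa-S33Y was made or whether it is a single clone. They say that cells were plated in duplicate, so p-values measure the spread between such duplicates, which may be technical.

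Nuclear receptors are transcription factors, many of which bind a small lipid-soluble ligand and then act on response elements in DNA. In the endometrium, estrogen acts through the receptor encoded by ESR1 to drive growth and to raise PGR and GREB1, and progesterone acts through the receptor encoded by PGR to oppose that growth. NR3C1 encodes the glucocorticoid receptor, RARA the retinoic acid receptor alpha and VDR the vitamin D receptor. NR2F2 encodes COUP-TFII, which in the normal endometrium is known from the stroma.

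RefSeq (GRCh38.p14) places ESR1 at chr6:151656672-152129619, PGR at chr11:101029624-101129813, GREB1 at chr2:11482888-11642788 and NR3C1 at chr5:143277931-143435512. NR2F2 lies at chr15:96326046-96340263, RARA at chr17:40309180-40357643 and VDR at chr12:47841537-47904994. RefSeq promoters matched 5 of the 7 genes, with 21 transcript starts among them. GREB1 and VDR had no match, so their promoters were not searched. The sequences below are shown for ESR1, PGR and NR2F2 because these genes separated the lines by the widest ratios. Each runs 5′ to 3′ on the gene's strand over the 250 bases before a start, and capitals mark GC boxes (GGGCGG, searched on both strands). Where RefSeq lists several starts, 6 for ESR1, 3 for PGR and 2 for NR2F2, the one with the most motif matches is printed, then the one richest in G and C. ESR1 is given at chr6:151807432-151807681 (plus strand), PGR at chr11:101129078-101129327 (minus strand) and NR2F2 at chr15:96333515-96333764 (plus strand).
ESR1: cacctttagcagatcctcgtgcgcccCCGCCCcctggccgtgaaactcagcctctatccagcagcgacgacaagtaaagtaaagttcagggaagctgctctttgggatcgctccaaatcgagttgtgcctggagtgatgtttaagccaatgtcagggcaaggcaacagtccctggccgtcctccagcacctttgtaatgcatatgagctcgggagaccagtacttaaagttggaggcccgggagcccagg
PGR: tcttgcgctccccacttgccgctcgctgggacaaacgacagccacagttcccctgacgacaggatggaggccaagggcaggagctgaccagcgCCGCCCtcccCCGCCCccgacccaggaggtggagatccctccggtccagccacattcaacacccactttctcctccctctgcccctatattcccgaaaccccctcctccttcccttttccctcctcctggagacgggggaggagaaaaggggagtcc
NR2F2: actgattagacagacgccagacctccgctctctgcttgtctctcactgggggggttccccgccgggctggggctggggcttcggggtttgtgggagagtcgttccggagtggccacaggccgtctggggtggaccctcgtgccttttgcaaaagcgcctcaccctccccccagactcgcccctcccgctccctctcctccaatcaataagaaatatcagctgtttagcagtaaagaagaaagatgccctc

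The 3 windows held 1, 2 and 0 GC boxes and had G and C shares of 56%, 64.4% and 60.4%. GC boxes occurred in 42.6% of the 35116 RefSeq promoter windows of the same length, so their presence is common. The estrogen response element (GGTCA, 3 bases and TGACC), held by 0.0399% of all windows, matched none of the 21 windows, which include none of GREB1 or VDR. Nor did the glucocorticoid and progesterone response element (AGAACA, 3 bases and TGTTCT), held by 0.00285%. AGGTCA, a single arm of the estrogen element present in 12.1% of all windows, matched only a RARA window, and these motifs were searched on both strands with overlaps between them allowed. Such matches describe the letters of the windows and say nothing of binding.

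Library depth was 13026400 to 34127623 reads in the other libraries, but 2991041 reads in replicate 2 of the Ishikawa-S33Y combination and 1607038 reads in replicate 2 of the SNGM combination, where 3 reads are worth 1.003 and 1.867 CPM (read counts scaled to the same total in every library). Each combination result of the 7 genes called with one of these libraries is also given without it. All 7 epithelial markers were above 1 CPM in every line on vehicle. Of 9 stromal, muscle, blood and vessel markers, 6 were above 1 CPM on vehicle in Ishikawa and 6 in Ishikawa-S33Y. The number was 3 in SNGM and 1 in HEC265. Among these markers HBB, a blood marker, had no reads on vehicle in 3 lines. COL1A1, a collagen gene of stromal cells, reached 1158 and 1131 CPM in Ishikawa-S33Y on vehicle, against 109 and 158 CPM in Ishikawa and under 7 CPM in SNGM and HEC265. CPM is not scaled by gene length, so levels below are compared between samples and not between genes.

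On vehicle, the estrogen receptor gene ESR1 was present in both Ishikawa lines, low in SNGM and almost absent from HEC265. ESR1 stood at 50.93 and 52.36 CPM in Ishikawa, at 45.44 and 40.79 CPM in Ishikawa-S33Y, at 2.27 and 3.31 CPM in SNGM and at 0.09 and 0.08 CPM in HEC265. No replicates of different lines overlapped. The HEC265 vehicle libraries held 4 ESR1 reads together, and the Ishikawa level was 623 times theirs, with a 95% counting interval of 243 to 2290. For Ishikawa-S33Y the ratio to HEC265 was 519 (202 to 1910), and for SNGM it was 34 (13.1 to 126). In a limma model of log2(CPM + 1) fitted to all libraries, ESR1 in SNGM was lower than in Ishikawa on the log2 scale (difference -3.81, SE 0.16, adjusted p = 4.69e-15). The neighbours Ishikawa and Ishikawa-S33Y did not pass the test for ESR1 (Ishikawa-S33Y minus Ishikawa -0.26, SE 0.16, adjusted p = 0.195). With a long-transcript score as a covariate, described below, that difference of ESR1 was -0.66 (adjusted p = 0.00411). SYNE1, whose span overlaps that of ESR1, was at 209.4 ± 20.1 CPM (SD, n = 2) in SNGM and at 9.475 ± 1.37 CPM in Ishikawa. The strand of counting is not given in the sources used here, so reads from overlapping genes may not be separated, and the part of SYNE1 in the low SNGM value of ESR1 was not tested.

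The progesterone receptor gene PGR was also highest in Ishikawa, with a clear gap between the 2 Ishikawa lines, while SNGM and HEC265 could not be ranked. PGR was at 4.13 and 4.15 CPM in Ishikawa and at 1.33 and 1.01 CPM in Ishikawa-S33Y, and it had no read in the vehicle libraries of SNGM and HEC265. Against a floor of 3 reads over the group, PGR in Ishikawa was at least 90.3-fold higher than in SNGM and at least 66.7-fold higher than in HEC265. In Ishikawa-S33Y it was at least 25.5-fold and at least 18.8-fold higher. The difference between Ishikawa-S33Y and Ishikawa was -1.25 (SE 0.21, limma adjusted p = 5.77e-05). Over all treatments, SNGM had 2 PGR reads, both in paclitaxel replicate 2, and HEC265 had 1, in SM08502 replicate 1. PGR-AS1, an antisense RNA, overlaps PGR in RefSeq.

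GREB1, which promotes estrogen-driven growth, did not follow ESR1 in the line without it. GREB1 was at 12.95 and 17.96 CPM in Ishikawa, 9.76 and 10.31 CPM in Ishikawa-S33Y, 5.07 and 5.41 CPM in HEC265 and 1.63 and 2.31 CPM in SNGM. HEC265, with the lowest ESR1, thus held more GREB1 than SNGM in both replicates (difference 1.08, SE 0.31, limma adjusted p = 0.00503). Without SNGM vehicle replicate 1 that difference was 0.91 with an adjusted p of 0.0538. The neighbours Ishikawa and Ishikawa-S33Y did not pass the test for GREB1 (Ishikawa-S33Y minus Ishikawa -0.56, SE 0.31, adjusted p = 0.141), but passed with quantile normalization (-0.63, adjusted p = 0.0339) and with the long-transcript score (-1.4985, adjusted p = 0.000201). GREB1 was called lower in HEC265 than in Ishikawa-S33Y (-0.82, adjusted p = 0.0259), a call lost on leaving out any of the 4 libraries (limma adjusted p 0.0705 to 0.0999), with no filter (0.0586) and with a pseudocount of 0.1 (0.0652). With quantile normalization this GREB1 difference shrank to -0.25 (adjusted p = 0.374).

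NR2F2 had the reverse order of ESR1. NR2F2 was at 0.12 and 0.15 CPM in Ishikawa, 1.92 and 1.89 CPM in Ishikawa-S33Y, 83.50 and 111.14 CPM in SNGM and 166.39 and 157.10 CPM in HEC265. Every neighbouring pair of lines passed limma for NR2F2, with Ishikawa-S33Y 1.35 above Ishikawa (SE 0.26, adjusted p = 0.000252), SNGM 5.07 above Ishikawa-S33Y (adjusted p = 2.57e-13) and HEC265 0.74 above SNGM (adjusted p = 0.0221). The smallest of these 3 steps, HEC265 against SNGM, was lost without SNGM vehicle replicate 1 (0.54, adjusted p = 0.184), without HEC265 replicate 1 (0.70, adjusted p = 0.0945), without HEC265 replicate 2 (0.78, adjusted p = 0.0628) and with a pseudocount of 0.1 (0.75, adjusted p = 0.182). Its antisense neighbour NR2F2-AS1 overlaps it. Over the 16 group means of log2(CPM + 1), NR2F2 and ESR1 had a Pearson r of -0.976, and ESR1 and PGR one of 0.848. These points are 4 lines repeated under 4 treatments, so the values describe the order of the lines.

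The receptors for glucocorticoid, retinoic acid and vitamin D were present in every line. NR3C1 was at 59.99 and 62.95 CPM in Ishikawa, 61.65 and 67.96 CPM in Ishikawa-S33Y, 29.16 and 29.54 CPM in HEC265 and 20.92 and 18.64 CPM in SNGM. The 2 Ishikawa lines overlapped for NR3C1 (Ishikawa-S33Y minus Ishikawa 0.07, SE 0.14, limma adjusted p = 0.704), and SNGM was lower than Ishikawa (difference -1.59, adjusted p = 1.69e-09). HEC265 exceeded SNGM for NR3C1 by 0.55 (adjusted p = 0.00216).

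VDR was highest in SNGM, at 28.93 and 31.26 CPM, followed by HEC265 at 20.03 and 18.96 CPM, Ishikawa at 16.03 and 18.88 CPM and Ishikawa-S33Y at 14.19 and 12.03 CPM. The neighbours HEC265 and Ishikawa (difference 0.15, adjusted p = 0.56) and Ishikawa-S33Y and Ishikawa (-0.39, adjusted p = 0.154) did not pass limma for VDR, although the second was -1.12 with the long-transcript score (adjusted p = 1.36e-05). The step of VDR from SNGM to HEC265 (-0.60, adjusted p = 0.0243) was lost on leaving out any of its 4 libraries (adjusted p 0.055 to 0.115), as was HEC265 above Ishikawa-S33Y (0.54, adjusted p = 0.0387, then 0.0523 to 0.202), which was also lost with no filter (adjusted p = 0.0747) and with the score (0.14, adjusted p = 0.391). RARA was at 44.06 and 38.11 CPM in Ishikawa-S33Y, 35.61 and 34.17 CPM in HEC265, 22.06 and 30.74 CPM in SNGM and 18.62 and 28.56 CPM in Ishikawa. No pair of lines passed limma for RARA, whose replicates spread widely in Ishikawa and SNGM. Ishikawa-S33Y minus Ishikawa (0.80, adjusted p = 0.0807) was called for RARA with re-centring (adjusted p = 0.0397), quantile normalization (0.0245) and voom on recovered reads (0.0219), and with the score it was -0.20 (0.722). RARA-AS1 and another long non-coding RNA overlap RARA in RefSeq.

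Between lines on vehicle, 2 of the 7 genes were called in Ishikawa-S33Y against Ishikawa, where 48.3% of all 17011 genes tested were called. The count was 6 of 7 in SNGM against Ishikawa (background 66.8%), 5 in HEC265 against Ishikawa (63.3%), 6 in SNGM against Ishikawa-S33Y (60.8%), 6 in HEC265 against Ishikawa-S33Y (58.0%) and 5 in HEC265 against SNGM (54.9%). With only 7 genes and such backgrounds, these counts show nothing particular to the 7.

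**Figure D1:**
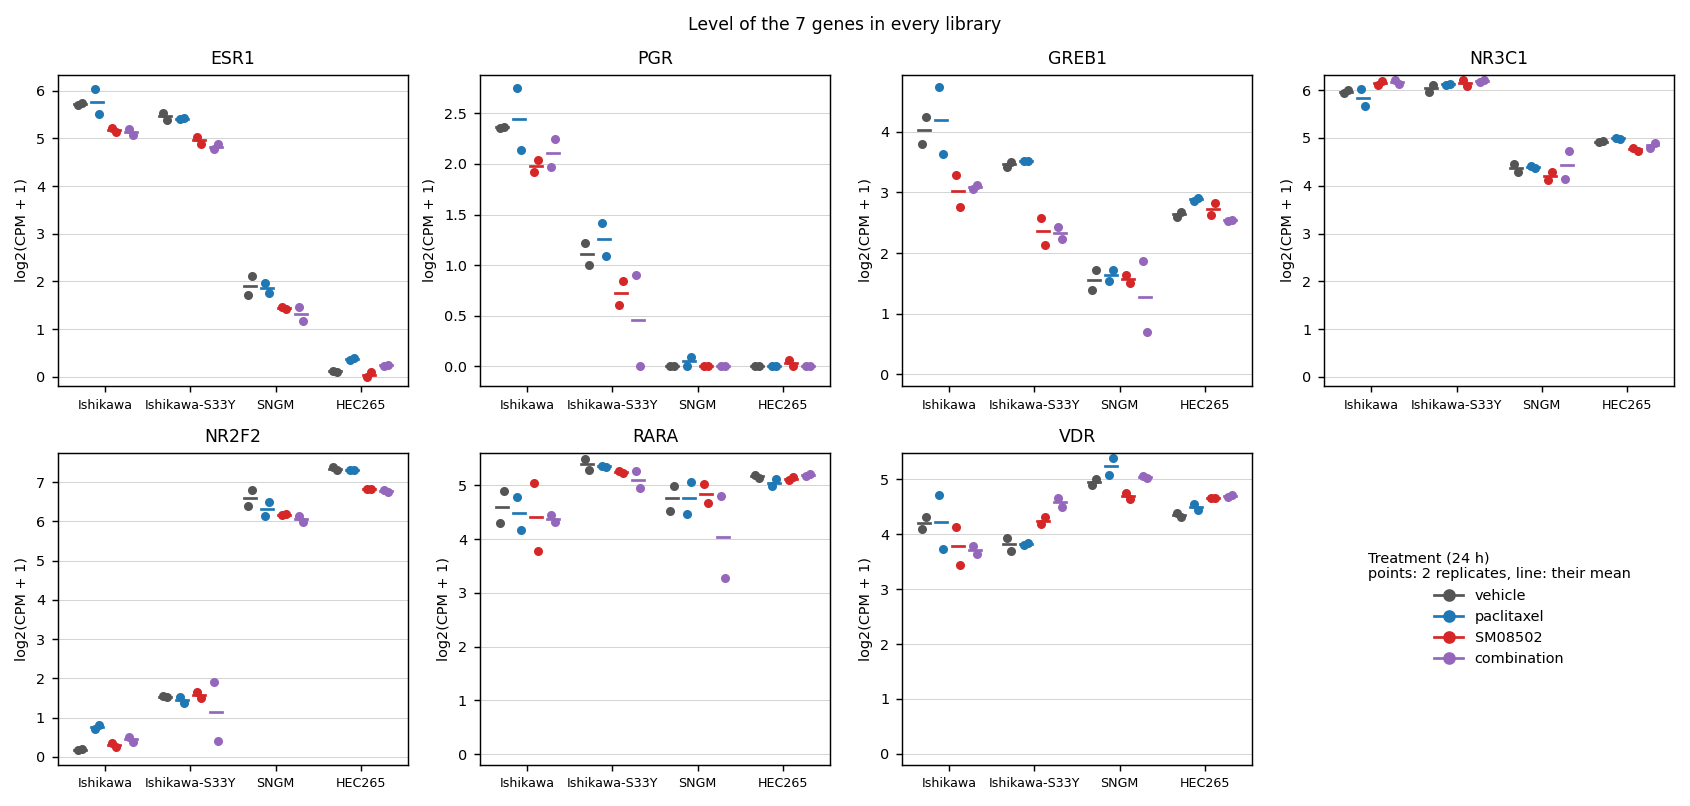
Level of the 7 genes, as log2(CPM + 1), in all 32 libraries by line (x axis) and treatment (colour), with 2 replicates as points and their mean as a short line. ESR1 is high in the 2 Ishikawa lines, PGR is highest in Ishikawa and low in Ishikawa-S33Y, and NR2F2 is high in SNGM and HEC265. The single low combination points of PGR, NR2F2, GREB1 and RARA belong to the 2 shallow libraries.

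A score for long transcripts was also compared, taken as the mean log2 level of 25 long genes minus that of 75 ribosomal protein genes. On vehicle it was lowest for Ishikawa (-2.668 and -2.300), then Ishikawa-S33Y (-1.145 and -1.293), HEC265 (-0.465 and -0.580) and SNGM (-0.332 and 0.087). Ishikawa libraries were made from 350 ng of RNA and the others from 500 ng, so RNA input and line cannot be told apart. With the score as a covariate, chosen after seeing the data, VDR in SNGM minus Ishikawa changed from 0.76 (limma adjusted p = 0.00449) to -0.62 (adjusted p = 0.0312). ESR1, PGR and NR2F2 kept their direction and their calls between Ishikawa and both SNGM and HEC265 in every alternative that was run, except that PGR was not tested under the stricter filter.

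SM08502 lowered ESR1 and GREB1 in Ishikawa and in Ishikawa-S33Y. In Ishikawa, ESR1 was at 50.93 and 52.36 CPM on vehicle and at 36.31 and 33.93 CPM with SM08502. The groups did not overlap, and the change was -0.54 (SE 0.16, limma adjusted p = 0.0238), a CPM ratio of 0.680. In Ishikawa-S33Y, ESR1 went from 45.44 and 40.79 CPM to 31.50 and 28.64 CPM, a change of -0.51 (SE 0.16, adjusted p = 0.0206), again without overlap.

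The estimates for GREB1 were larger than those for ESR1, but the sizes of the changes were not compared by a test. In Ishikawa, GREB1 was at 12.95 and 17.96 CPM on vehicle and at 8.73 and 5.78 CPM with SM08502, a change of -1.0 (SE 0.31, limma adjusted p = 0.0306). In Ishikawa-S33Y, GREB1 was at 9.76 and 10.31 CPM on vehicle and at 4.96 and 3.41 CPM with the drug (change -1.11, SE 0.31, adjusted p = 0.00971). The SM08502 level of GREB1 was thus 0.469 of vehicle in Ishikawa and 0.417 in Ishikawa-S33Y. The Ishikawa replicates of GREB1 that were low, vehicle replicate 1 and SM08502 replicate 2, also had the lower long-transcript score of their group (-2.668 and -2.988), and with that score as a covariate the change was -0.92 (adjusted p = 0.00244).

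These calls for single lines stand on few libraries. Leaving out Ishikawa vehicle replicate 1 ended the call for ESR1 (limma adjusted p = 0.0848), leaving out vehicle replicate 2 ended those for ESR1 (0.127) and GREB1 (0.239), and so did leaving out SM08502 replicate 2 (0.158 and 0.282). In Ishikawa-S33Y, ESR1 was lost on leaving out any of the 4 libraries (adjusted p 0.0505 to 0.147), and GREB1 on leaving out vehicle replicate 2 (0.0629) or SM08502 replicate 2 (0.117). The differences stayed negative throughout, between -0.43 and -0.58 for ESR1 in Ishikawa-S33Y. With Ishikawa samples fitted alone, the adjusted p was 0.195 for ESR1 and 0.227 for GREB1. A pseudocount of 0.1 also ended the calls for ESR1 in Ishikawa (0.142) and Ishikawa-S33Y (0.126) and for GREB1 in Ishikawa (0.0974).

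As the mean over the 4 lines, which rests on 16 libraries, both genes fell under SM08502 with less dependence on single libraries. ESR1 changed by -0.40 (SE 0.08, limma adjusted p = 0.000462) and GREB1 by -0.50 (SE 0.15, adjusted p = 0.0129). Without any single library, ESR1 lay between -0.45 and -0.35 and GREB1 between -0.57 and -0.44, with adjusted p up to 0.00199 and 0.0393. For ESR1, 4 of 4 lines had the same sign, although HEC265 was at 0.09 and 0.08 CPM on vehicle and at 0.00 and 0.07 CPM with SM08502, too few reads for a direction. GREB1 had a negative sign in the 2 Ishikawa lines and values near 0 in SNGM (0.01) and HEC265 (0.09).

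In SNGM, ESR1 was at 2.27 and 3.31 CPM on vehicle and at 1.74 and 1.67 CPM with SM08502 (-0.47, SE 0.16, limma adjusted p = 0.076). The groups did not overlap, and the call was made on leaving out vehicle replicate 1 (adjusted p = 0.0438), with re-centring (0.037) and with the long-transcript score (0.0277). SYNE1, which overlaps ESR1, was at 209.4 CPM on vehicle and 169.4 CPM with SM08502 in SNGM, and its part in the ESR1 values was not tested. GREB1 in SNGM overlapped between vehicle (1.63 and 2.31 CPM) and SM08502 (2.11 and 1.85 CPM), as it did in HEC265 (5.07 and 5.41 CPM against 5.18 and 6.13 CPM). The difference of the GREB1 effect between lines did not pass the test, being 1.12 for SNGM minus Ishikawa-S33Y (SE 0.43, adjusted p = 0.109) and 1.20 for HEC265 minus Ishikawa-S33Y (adjusted p = 0.116).

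PGR was lower with SM08502 in both replicates of both Ishikawa lines without passing the test. In Ishikawa it was at 4.13 and 4.15 CPM on vehicle and at 2.78 and 3.10 CPM with the drug (-0.38, SE 0.21, limma adjusted p = 0.242). In Ishikawa-S33Y it was at 1.33 and 1.01 CPM and then at 0.52 and 0.79 CPM (-0.39, SE 0.21, adjusted p = 0.184; -0.47 and 0.0362 with quantile normalization). The pseudocount of 1 understates changes at such levels, and the CPM ratios were 0.710 and 0.563. No change of PGR could be examined in SNGM and HEC265, where the gene was at 0 on vehicle.

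**Figure D2:**
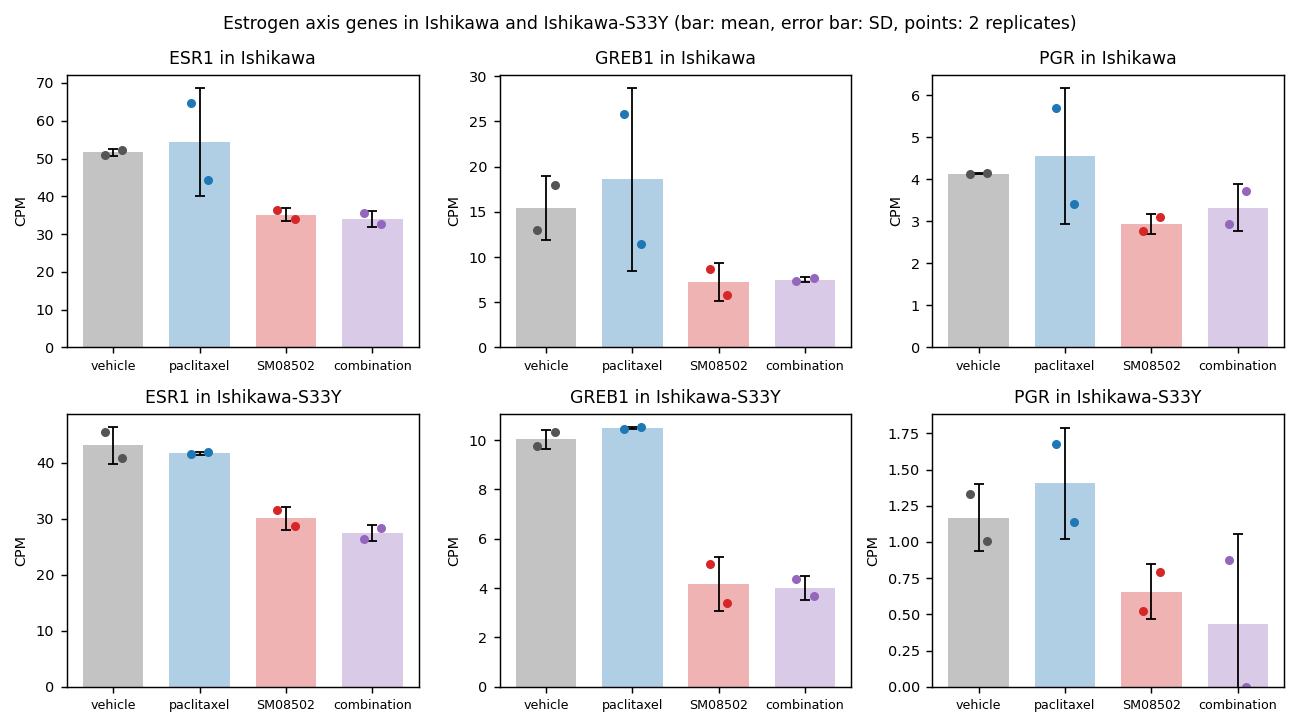
CPM of ESR1, GREB1 and PGR (y axis, from 0) in Ishikawa and Ishikawa-S33Y by treatment, with bars for the mean, error bars for the SD and points for the 2 replicates. ESR1 and GREB1 points with SM08502 or the combination lie below both vehicle points in each line, and the Ishikawa paclitaxel replicates of all 3 genes lie on either side of the vehicle points (an SD bar reaching below 0 is cut at the axis).

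NR2F2, abundant in the 2 lines that lack PGR, was lower with SM08502 there without being called. In HEC265 it was at 166.39 and 157.10 CPM on vehicle and at 112.54 and 111.64 CPM with SM08502 (-0.52, SE 0.26, limma adjusted p = 0.217). The HEC265 groups did not overlap and their replicates lay close together. The SE is shared over all lines, and a fit of the HEC265 samples alone called the same difference of NR2F2 (adjusted p = 0.000534), as did limma voom on recovered reads (-0.53, adjusted p = 0.00568). In SNGM, NR2F2 went from 83.50 and 111.14 CPM to 70.35 and 71.83 CPM (-0.43, adjusted p = 0.404), and voom gave an adjusted p of 0.0274. In the Ishikawa lines NR2F2 stayed under 3 CPM in every library.

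The other 3 receptors did not pass the test in any line under SM08502 in the model of all libraries, while some other fits called NR3C1 or VDR. NR3C1 with SM08502 was at 67.82 and 71.88 CPM in Ishikawa, 73.61 and 67.45 CPM in Ishikawa-S33Y, 16.31 and 18.62 CPM in SNGM and 26.74 and 25.55 CPM in HEC265. Its differences were 0.18 and 0.12 in the Ishikawa lines and -0.17 and -0.16 in SNGM and HEC265 (SE 0.14, limma adjusted p 0.422 to 0.573), and the HEC265 samples fitted alone called NR3C1 lower (adjusted p = 0.0397). As the mean over lines the difference of NR3C1 was -0.01 with a 95% interval of -0.15 to 0.14.

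VDR with SM08502 was at 16.48 and 9.79 CPM in Ishikawa, 17.15 and 18.86 CPM in Ishikawa-S33Y, 25.97 and 23.88 CPM in SNGM and 24.24 and 24.32 CPM in HEC265. Its sign was mixed, with -0.42 and -0.26 in Ishikawa and SNGM and 0.43 and 0.30 in Ishikawa-S33Y and HEC265 (SE 0.22, limma adjusted p 0.149 to 0.584). With the line fitted alone, VDR was called higher in Ishikawa-S33Y (adjusted p = 0.0211) and in HEC265 (0.00613). With the long-transcript score it was called higher in Ishikawa-S33Y (0.56, adjusted p = 0.000998) and HEC265 (0.54, 0.00284) and lower in Ishikawa (-0.36, 0.0342). The Ishikawa replicate of VDR at 9.79 CPM is the one with the long-transcript score of -2.988, against -2.203 for the other, and without SM08502 replicate 1 VDR in Ishikawa was called lower (-0.77, adjusted p = 0.0244). The difference of the VDR effect between Ishikawa-S33Y and Ishikawa was 0.85 (SE 0.31, unadjusted p = 0.0117, adjusted p = 0.147). RARA with SM08502 spread from 12.77 to 31.86 CPM in Ishikawa, and its mean difference over lines was -0.07 with a 95% interval of -0.45 to 0.32.

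Counted together, SM08502 lowered 2 of the 7 genes in Ishikawa, where 8.68% of all genes tested were called lower and 15.2% in either direction. It lowered 2 of 7 in Ishikawa-S33Y (10.6% lower, 29.1% in either direction) and 2 of 7 as the mean over lines (15.8% lower, 38.5% in either direction). No gene of the 7 was called in SNGM (background 7.86%), with 1 at an unadjusted p under 0.05, or in HEC265 (14.7%), with 0, while limma voom called 1 in each. The median difference of the 7 genes was -0.19 as the mean over lines, beside 0.05 for all genes tested. The effect of SM08502 on any of the 7 genes was not called as different between lines in the 6 pairs of lines, although 0 to 3 of the 7 had an unadjusted p under 0.05 in a pair. Of all genes tested, 2.43% were called for Ishikawa-S33Y minus Ishikawa, 3.66% for SNGM minus Ishikawa, 2.56% for HEC265 minus Ishikawa, 9.83% for SNGM minus Ishikawa-S33Y, 5.66% for HEC265 minus Ishikawa-S33Y and 2.03% for HEC265 minus SNGM.

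**Figure D3:**
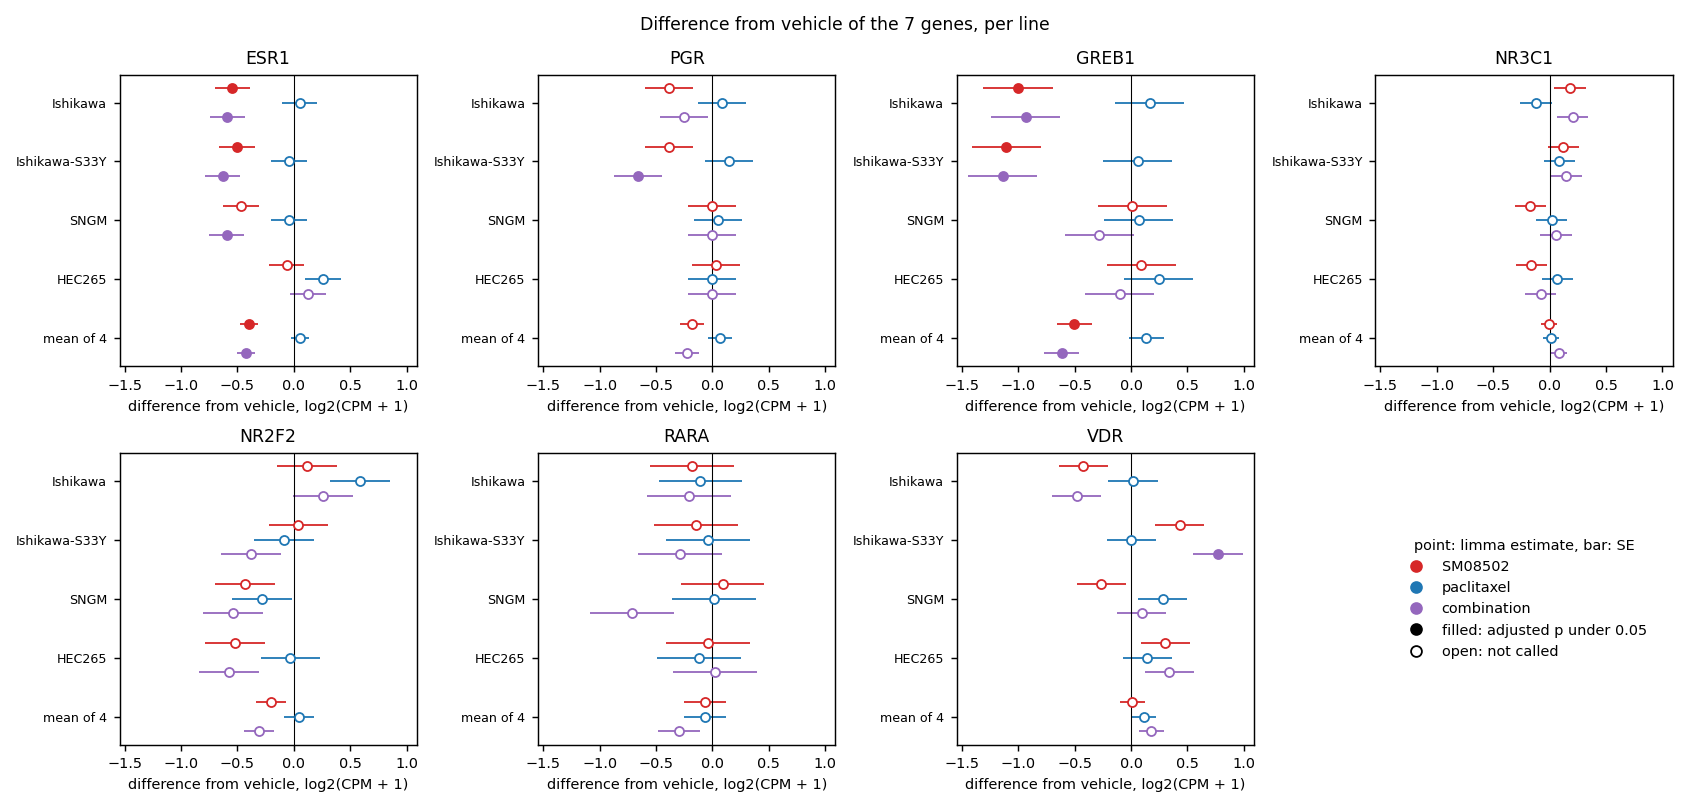
Difference from vehicle in log2(CPM + 1) (x axis) with its SE for the 7 genes in each line and as the mean of the 4 lines (y axis), by treatment (colour), filled where the limma adjusted p was under 0.05. Filled points are those of ESR1 and GREB1 for SM08502 and the combination in the 2 Ishikawa lines and in the mean, of ESR1 for the combination in SNGM, and of PGR and VDR for the combination in Ishikawa-S33Y.

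Paclitaxel changed none of the 7 genes in any line by limma, and limma voom called none either. Few genes changed at all with paclitaxel, the share of genes called being 0.00588% for HEC265, 0.0176% for SNGM, 0.0118% for the wildtype Ishikawa line, and 0% for Ishikawa-S33Y and for the mean over lines. ESR1 with paclitaxel was at 64.60 and 44.33 CPM in Ishikawa, 41.46 and 41.89 CPM in Ishikawa-S33Y, 2.94 and 2.38 CPM in SNGM and 0.28 and 0.32 CPM in HEC265. The Ishikawa pair of ESR1 straddled vehicle, and so did those of GREB1 (25.77 and 11.43 CPM), PGR (5.71 and 3.42 CPM) and VDR (25.19 and 12.27 CPM). In all 4 genes replicate 1 was the higher one, and its long-transcript score was -1.458, against -3.061 for replicate 2. The mean over lines was 0.06 for ESR1 with a 95% interval of -0.11 to 0.22, and 0.13 for GREB1 with -0.18 to 0.45. Of the 7 genes, 1 had an unadjusted p under 0.05 in Ishikawa, NR2F2 (0.65 and 0.77 CPM against 0.12 and 0.15 CPM on vehicle, unadjusted p = 0.0386, adjusted p = 0.652), and none did in the other lines or in the mean.

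The combination gave levels of ESR1 and GREB1 much like those with SM08502 alone. ESR1 with both drugs was at 35.53 and 32.54 CPM in Ishikawa (-0.59 against vehicle, limma adjusted p = 0.0111), 26.46 and 28.42 CPM in Ishikawa-S33Y (-0.63, adjusted p = 0.00298) and 1.74 and 1.24 CPM in SNGM (-0.60, adjusted p = 0.0121). The SNGM call for ESR1 was lost without vehicle replicate 2 (-0.40, adjusted p = 0.199) and without the shallow combination replicate 2 (-0.45, adjusted p = 0.131). It was also lost with the SNGM samples fitted alone (adjusted p = 0.159) and with voom on recovered reads (-0.68, adjusted p = 0.224). The Ishikawa call for ESR1 was lost without vehicle replicate 2 (adjusted p = 0.0729) or combination replicate 2 (adjusted p = 0.0986), and the Ishikawa-S33Y call held on leaving out each library (adjusted p up to 0.0397), being -0.68 (adjusted p = 0.0105) without the shallow replicate 2. In HEC265, ESR1 was at 0.17 and 0.19 CPM with both drugs, against 0.09 and 0.08 CPM on vehicle (0.13, limma adjusted p = 0.686). These HEC265 values rest on 8 and 4 reads, too few for a direction, although that line fitted alone called ESR1 higher (adjusted p = 0.0454). As the mean over lines, ESR1 changed by -0.42 (SE 0.08, adjusted p = 0.000158), or by -0.40 (adjusted p = 0.000502) without both shallow libraries. Voom gave a mean of -0.25 (adjusted p = 0.363). The cause of that value, and the part of the few HEC265 reads in it, was not tested.

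GREB1 with both drugs was at 7.33 and 7.69 CPM in Ishikawa (-0.94, limma adjusted p = 0.0323) and at 4.37 and 3.68 CPM in Ishikawa-S33Y (-1.14, adjusted p = 0.00504). Without the shallow replicate 2 the Ishikawa-S33Y change of GREB1 was -1.04 (adjusted p = 0.0424). The Ishikawa call for GREB1 was lost without vehicle replicate 2 (-0.71, adjusted p = 0.24), combination replicate 1 (-0.90, adjusted p = 0.13) or combination replicate 2 (-0.97, adjusted p = 0.118). The mean over lines for GREB1 was -0.61 (SE 0.15, adjusted p = 0.00223), and -0.44 (adjusted p = 0.0125) without both shallow libraries. In SNGM the combination replicates of GREB1 were far apart, at 2.63 and 0.62 CPM, the second being the shallow library, and the difference turned from -0.28 (adjusted p = 0.583) to 0.30 (0.655) without it. In HEC265 they were at 4.76 and 4.87 CPM, against 5.07 and 5.41 CPM on vehicle (-0.10, adjusted p = 0.913).

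PGR and VDR were called with the combination in Ishikawa-S33Y only among the 4 lines, and the difference between lines was not tested for this treatment. PGR was at 0.87 and 0.00 CPM with both drugs, against 1.33 and 1.01 CPM on vehicle (-0.66, SE 0.21, limma adjusted p = 0.0166). The value of 0 is from the shallow replicate 2, in which 3 reads are worth 1.003 CPM, and without that library the difference of PGR was -0.21 (adjusted p = 0.452). Without vehicle replicate 1 it was -0.55 (adjusted p = 0.122), and the PGR call was also lost with voom (adjusted p = 0.223) and with that line fitted alone (0.0973). VDR was at 24.36 and 21.73 CPM with both drugs, against 14.19 and 12.03 CPM on vehicle, and rose by 0.77 (SE 0.22, adjusted p = 0.00735). The VDR groups did not overlap, and SM08502 alone gave 17.15 and 18.86 CPM, between them. Without vehicle replicate 2 the VDR difference was 0.66 (adjusted p = 0.0728) and without combination replicate 1 it was 0.69 (adjusted p = 0.0503), whereas without the shallow replicate 2 it was 0.85 (adjusted p = 0.0214). In HEC265, VDR was at 24.68 and 25.17 CPM with both drugs, against 20.03 and 18.96 CPM on vehicle (0.34, adjusted p = 0.321), and the HEC265 samples fitted alone gave an adjusted p of 0.00345.

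NR2F2 with the combination was at 110.28 and 106.14 CPM in HEC265 (-0.58, SE 0.26, limma adjusted p = 0.141) and at 69.47 and 62.85 CPM in SNGM (-0.54, adjusted p = 0.167). Without the shallow replicate the SNGM difference of NR2F2 was -0.47 (adjusted p = 0.455), and voom on all libraries called it (adjusted p = 0.0276). HEC265 fitted alone called the difference of NR2F2 (adjusted p = 0.000322). NR3C1 with both drugs was at 73.26 and 68.60 CPM in Ishikawa, 70.55 and 73.22 CPM in Ishikawa-S33Y, 16.54 and 25.51 CPM in SNGM and 26.73 and 28.76 CPM in HEC265, and was called in none of them. Without the shallow replicate, at 25.51 CPM, NR3C1 in SNGM changed from 0.06 (adjusted p = 0.854) to -0.24 (0.281). RARA in SNGM stood at 27.04 and 8.71 CPM, the low value being that of the shallow library (-0.71, SE 0.37, adjusted p = 0.192), and without it the difference of RARA was 0.05 (adjusted p = 0.985).

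The combination changed 4 of the 7 genes in Ishikawa-S33Y, where 42.0% of all genes were called, 2 of 7 in Ishikawa (22.8%), 1 of 7 in SNGM (18.4%), none in HEC265 (19.5%) and 2 as the mean over lines (49.1%). Without the shallow libraries the counts were 3 in Ishikawa-S33Y, 0 in SNGM and 2 as the mean over lines. In HEC265, 1 gene had an unadjusted p under 0.05 and voom called 1. Against SM08502 alone the combination changed none of the 7 by limma or voom, the share of genes called being 0.00588% for HEC265, 0.253% for SNGM, 0.129% for Ishikawa-S33Y, 0% for Ishikawa and 0.0470% for the mean over lines. At an unadjusted p under 0.05 there was 1, RARA in SNGM. The mean difference between the combination and SM08502 was -0.03 for ESR1 (95% interval -0.19 to 0.14) and -0.11 for GREB1 (-0.43 to 0.21), or -0.003 and 0.06 without both shallow libraries (adjusted p 0.994 and 0.927). These comparisons share their vehicle or SM08502 samples.

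The rest of the nuclear receptor family gives the setting of these genes. Of 48 receptor genes, the 6 above and 42 others, the number above 1 CPM on vehicle was 26 in HEC265, 32 in SNGM, 34 in Ishikawa and 36 in Ishikawa-S33Y, and 25 were above it in all 4 lines. ESR2, the second estrogen receptor, was above 1 CPM in every line, at 3.76 and 5.45 CPM in Ishikawa, 2.91 and 2.93 CPM in Ishikawa-S33Y, 4.57 and 7.68 CPM in SNGM and 2.36 and 2.08 CPM in HEC265. Genes that overlap ESR2 were not looked up, so reads shared with such genes may be among these values. With SM08502, ESR2 was at 6.88 and 8.21 CPM in Ishikawa (0.62, SE 0.40, limma adjusted p = 0.319) and at 5.60 and 5.38 CPM in Ishikawa-S33Y (0.73, adjusted p = 0.181), not called in either. RXRA, the partner of RARA and VDR on DNA, was at 16.5 and 20.4 CPM in Ishikawa, 28.9 and 24.7 CPM in Ishikawa-S33Y, 29.0 and 32.6 CPM in SNGM and 51.1 and 50.1 CPM in HEC265.

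**Figure D4:**
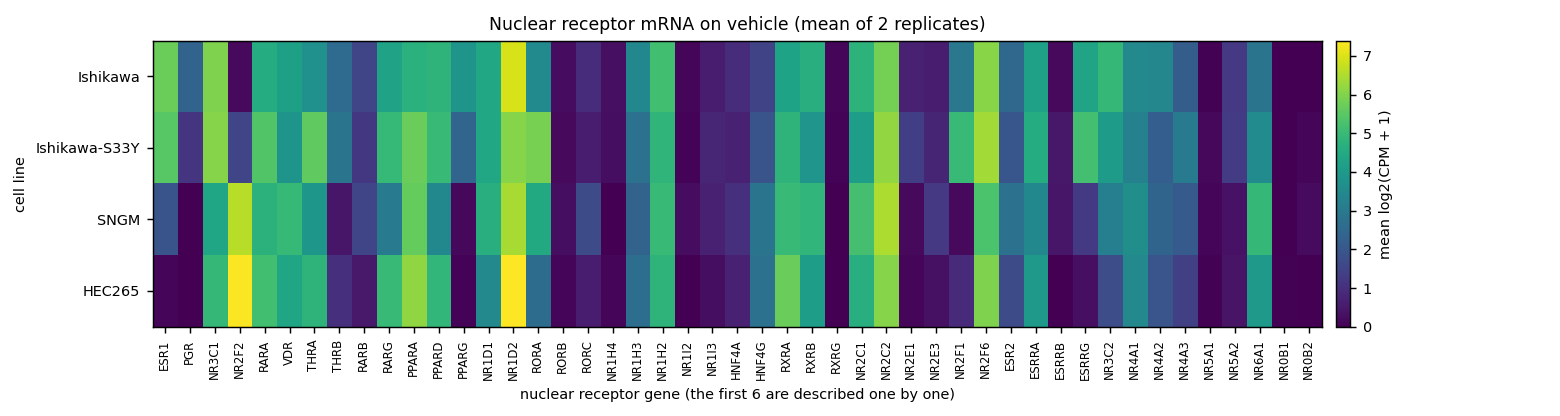
Mean log2(CPM + 1) on vehicle (colour) of nuclear receptor genes (x axis) in the 4 lines (y axis), each from 2 replicates. ESR1, PGR and PPARG are dark in HEC265 and, apart from a weak ESR1, in SNGM, while NR2F2 is bright there and dark in Ishikawa.

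Of the 42 other receptors, 34 passed the filter, and with SM08502 as the mean over lines 7 rose and 4 fell, where 22.6% of all genes rose and 15.8% fell. NR1H3 and NR1H2, the oxysterol receptors LXR alpha and LXR beta, had the largest rises named by the rule. NR1H3 was at 8.45 and 11.7 CPM on vehicle and 17.8 and 21.4 CPM with SM08502 in Ishikawa, and at 4.12 and 4.13 CPM and then 11.3 and 10.3 CPM in SNGM. It rose by 0.96 over the lines (SE 0.10, limma adjusted p = 2.11e-07), in 4 of 4. NR1H2 rose by 0.68 (SE 0.08, adjusted p = 1.22e-06), also in 4 of 4. RARG, the retinoic acid receptor gamma, fell (change -0.54, SE 0.14, adjusted p = 0.00368) with the same sign in 4 lines, beside RARA at -0.07. ESRRG, an orphan relative of the estrogen receptors, changed by -0.37 (adjusted p = 0.00651), with the opposite sign in HEC265, where it was under 1 CPM. The ESRRG call was lost with a pseudocount of 0.1 (-0.33, adjusted p = 0.156) and with voom on recovered reads (-0.31, adjusted p = 0.224). The median of the 34 was -0.01, beside 0.05 for all genes.

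Of the 20 estrogen response genes, 15 passed the filter. As the mean over lines SM08502 lowered 2 of the 15, CA12 and RET, and raised none, where 15.8% of all genes fell and 22.6% rose. The count of falls is near that background, and the absence of rises is below it. CA12, a carbonic anhydrase, was at 9.66 and 12.03 CPM on vehicle and 7.758 and 7.999 CPM with SM08502 in Ishikawa-S33Y, and under 3 CPM in Ishikawa. Its mean change was -0.29 (SE 0.11, limma adjusted p = 0.0397), a call lost with no filter (0.083) and with the long-transcript score (0.1), and the count of called genes in this list was 0 or 1 on leaving out any single library. In Ishikawa 0 of the 15 were called (15.2% of all genes), although ESR1 and GREB1 were lower there, and the median was -0.33 beside 0.00 for all genes. In Ishikawa-S33Y, RET was lower and PDZK1 and KCNK15 were higher (29.1% of all genes were called), and the median was -0.30 beside 0.11. With the combination, 3 of the 15 fell and none rose in Ishikawa (22.8% of all genes called). In Ishikawa-S33Y 7 fell and 1 rose (42.0%). In SNGM none fell and 1 rose (18.4%), and in HEC265 2 fell and 1 rose (19.5%). As the mean over lines 4 fell and none rose (49.1%). The Ishikawa-S33Y, SNGM and mean counts include the shallow libraries.

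Of the 20 receptor coregulators, all tested, 1 rose and 4 fell as the mean over lines, where 22.6% of all genes rose and 15.8% fell. SRA1, which gives an RNA that acts with steroid receptors, rose by 0.43 (SE 0.07, limma adjusted p = 6.88e-05). CARM1 and PRMT1, arginine methyltransferases that act on histones and coactivators, fell (changes of -0.29 each, adjusted p = 0.0201 and 0.00086). The CARM1 call was lost without Ishikawa SM08502 replicate 2 (-0.22, adjusted p = 0.0654), Ishikawa-S33Y vehicle replicate 1 (-0.26, adjusted p = 0.0536) or SNGM vehicle replicate 2 (-0.26, adjusted p = 0.051). The other 2 that fell were PHB2 and DDX17, and the list's median was 0.06.

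Of 20 targets of the glucocorticoid, retinoic acid and vitamin D receptors and relatives, 2 rose and 7 fell with SM08502 as the mean over lines, where 22.6% of all genes rose and 15.8% fell. TSC22D3, induced by glucocorticoids and known as GILZ, rose by 0.35 (SE 0.08, limma adjusted p = 0.0025) with the opposite sign in HEC265 (-0.15). KLF9, another glucocorticoid target, was at 0.32 (adjusted p = 0.0419), a call lost on leaving out most single libraries, as far as 0.21 (adjusted p = 0.135) without Ishikawa SM08502 replicate 1. The genes that fell included CRABP2, which carries retinoic acid to its receptor, from 18.8 and 16.4 CPM to 7.17 and 7.42 CPM in Ishikawa and from 28.2 and 25.4 CPM to 11.5 and 10.4 CPM in Ishikawa-S33Y. CRABP2 changed by -0.76 over the lines (SE 0.12, adjusted p = 3.51e-05), with the opposite sign in SNGM, where it was near 0, and by -0.79 with a pseudocount of 0.1 (adjusted p = 0.0743). IGFBP3, which binds insulin-like growth factors, changed by -0.96 (SE 0.09, adjusted p = 2.88e-08), from -1.15 to -1.48 in the 3 lines that expressed it, and had no reads in HEC265. CYP26A1, CYP26B1, GLUL, TGM2 and HSD11B2 were the others that fell. The list's median was -0.11, beside 0.05 for all genes.

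Of 20 chaperones and enzymes of hormone metabolism, 18 passed the filter, none rose and 6 fell as the mean over lines, where 22.6% of all genes rose and 15.8% fell. SRD5A1, a steroid 5-alpha-reductase that makes dihydrotestosterone, changed by -0.79 (SE 0.07, limma adjusted p = 5.37e-08) and STS, the sulfatase that frees estrogens from their sulfates, by -0.71 (SE 0.08, adjusted p = 7.06e-07), both in 4 of 4 lines. In SNGM, SRD5A1 went from 88.9 and 89.0 CPM to 40.1 and 49.6 CPM, and in Ishikawa STS went from 22.9 and 26.6 CPM to 13.36 and 9.0 CPM. The others were FKBP4, ALDH1A1, ALDH1A2 and RDH10, the last 3 being enzymes of retinoic acid synthesis.

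Some markers of cell type also moved with SM08502. Of the 7 epithelial markers, 6 fell with SM08502 as the mean over lines (15.8% of all genes fell), with CDH1 at -0.57 (limma adjusted p = 0.000177) and MUC1 at -0.91 (adjusted p = 4.22e-05). Their summed level was 1467 to 1506 CPM on vehicle and 1044 to 1177 CPM with SM08502 in Ishikawa, 3413 to 3481 CPM and 1755 to 1979 CPM in Ishikawa-S33Y, 1006 to 1093 CPM and 1008 to 1074 CPM in SNGM and 2455 to 2481 CPM and 2040 to 2143 CPM in HEC265. Of the 9 stromal, muscle, blood and vessel markers, 7 were tested. As the mean over lines 2 fell and 5 were not called, where 15.8% of all genes fell. Those that fell were COL1A1 (-0.96, limma adjusted p = 0.000308) and ACTG2 (-0.29, adjusted p = 0.0116). The list's median was -0.11, beside 0.05 for all genes. The part of these shifts in the values of ESR1 and GREB1 was not tested, and in bulk samples fewer cells of a type and less RNA per cell cannot be told apart.

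Over the 16 group means, the genes most like each of the 7 by Pearson r, among 12118 genes, were COCH (0.996) and HIST4H4 (0.992) for ESR1, LYRM5 (0.987) and RAB4B (0.984) for PGR, and TSPAN3 (0.961) and PTPA (0.960) for GREB1. For NR2F2 they were RPS6KA3 (0.995) and TAP2 (0.994), for NR3C1 LCP1 (0.986) and SLC18B1 (0.985), for RARA RFX1 (0.972) and MYO9B (0.958), and for VDR LPIN1 (0.938) and TLE1 (0.933). The 16 points share 4 lines, and with so many genes high values of r for a split between lines are common, so these are descriptions.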

How the data were processed

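The authors deposited log10 of CPM plus 1 for 35238 genes in 32 libraries, per the file's values, which sum to the same total in each library after back-transformation to CPM. RNA was purified on RNeasy Plus columns, depleted of ribosomal RNA and made into libraries with the KAPA mRNA HyperPrep kit, per the labels' protocols. The submitters' processing notes name bcl2fastq, kallisto, STAR and GRCh38, with no role or order, and the strand of counting is not given in the sources used here. Every value came out as whole reads within a tolerance of 0.01 reads, which gave the depth. Ratio intervals (exact, 95%) and floors of 3 reads cover counting error only.

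Values were tested as log2(CPM + 1), which understates changes of low genes, with limma 3.58.1 (R 4.3.3): 1 mean per group, all 32 libraries, intensity trend, genes above 1 CPM in at least 2 libraries (17011), Benjamini-Hochberg adjustment over them, a threshold of 0.05, two-sided. The design had assumed another log base. Alternatives were the filter, the pseudocount, re-centring, quantile normalization, no trend, each line alone, a replicate block, each library left out (a lone sample is then assumed to vary like the others) and 2 settings added once the data had been seen, limma voom on recovered reads and a long-transcript score as covariate. The genes and lists were chosen with earlier results of these data known. All 7 genes, RXRA and ESR2 are named, 1 other gene fixed for naming is not reported here, with the 2 largest called rises and falls of each list (SM08502 mean over lines, mean log2 level of at least 1) and the 2 genes most like each of the 7 (mean log2 level of at least 2). The test was tried on simulated data.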

Additional observations from a re-analysis of the deposited data

How the results depend on the processing

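Depth limits PGR in SNGM and HEC265, ESR1 in HEC265 and every low gene in the 2 shallow combination libraries. The planned edgeR and DESeq2 tests were not run because the deposited unit is log10. The mean SM08502 changes of ESR1 and GREB1 over lines, and the absence of calls for paclitaxel, held in every alternative run.

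Of the 7 genes, SM08502 in Ishikawa called 1 with no filter, 0 with a pseudocount of 0.1 and 0 with that line alone, against 2. In Ishikawa-S33Y it called 1 with a pseudocount of 0.1, against 2. In SNGM it called 1 with re-centring, the long-transcript score or voom, and in HEC265 it called 1 with the score or voom and 3 with that line alone, against 0 in both. The combination called 1, 0 and 0 of 2 in Ishikawa under the same 3 settings as SM08502, and 0 of 1 in SNGM alone. In HEC265 the combination called 1 (score, voom) or 3 (alone), against 0. As the mean over lines it called 1 with voom, against 2. There, NR2F2 was added with re-centring and with quantile normalization. VDR was added with the score (limma adjusted p = 4.78e-05), its main difference being 0.18 (adjusted p = 0.181). Between Ishikawa-S33Y and Ishikawa on vehicle, 1 was called with the stricter filter, 4 with quantile normalization and 5 with the score, against 2.

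Differences of the SM08502 effect between lines, 0 as reported, were called for 1 gene (Ishikawa-S33Y minus Ishikawa), 1 (SNGM minus Ishikawa), 3 (HEC265 minus Ishikawa), 2 (SNGM minus Ishikawa-S33Y), 1 (HEC265 minus Ishikawa-S33Y) and 1 (HEC265 minus SNGM) with the score. Quantile normalization called 1 for SNGM minus either Ishikawa line and 1 for HEC265 minus Ishikawa-S33Y, re-centring called 1 for SNGM minus Ishikawa-S33Y, and the compared lines alone called 1, 1, 3 and 1 for HEC265 minus Ishikawa, SNGM minus Ishikawa-S33Y, HEC265 minus Ishikawa-S33Y and HEC265 minus SNGM. Of the estrogen response genes, 0 were called with no filter or the stricter filter and 1 with a pseudocount of 0.1 or the score, against 2. Of the coregulators, 15 were called with the score, against 5.

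Small mean SM08502 changes reversed, with NR3C1 at 0.0064 and RARA at 0.116 with the score, and VDR at -0.0026 with re-centring and -0.0101 with quantile normalization. NR2F2 with the combination, as the mean over lines, was -0.31 (limma adjusted p = 0.0584) in the model of all libraries and 0.0075 with voom. It was called lower with re-centring, quantile normalization and the replicate block. In Ishikawa, NR2F2 had 2 and 2 reads on vehicle and 7 and 4 reads with both drugs, and their part in the voom value was not tested. With the score, RARA on vehicle, each line minus Ishikawa, was -1.70 for SNGM, -0.98 for HEC265 and -0.20 for Ishikawa-S33Y, and VDR was -0.62 in SNGM and -0.99 in HEC265 minus Ishikawa. The score differs between lines, so it and the line cannot be told apart. Re-centring moved the median difference of all genes between lines by up to 0.215, quantile normalization by up to 0.272 and the score by up to -0.22.

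Leaving out 1 library gave 0 to 3 called genes for SM08502 in Ishikawa, 0 to 1 in Ishikawa-S33Y and 0 to 1 in SNGM. It gave 0 to 2 for the combination in Ishikawa, 0 to 4 in SNGM and 2 to 4 as the mean over lines. Against SM08502, the combination was called for 0 to 2 genes in Ishikawa-S33Y, 0 to 3 in SNGM and 0 to 1 as the mean over lines, the highest counts being those without combination replicate 1, which leaves the shallow library. HEC265 minus SNGM on vehicle had 2 to 4, the SM08502 effect in Ishikawa-S33Y or HEC265 minus Ishikawa 0 to 1, and the estrogen response genes 0 to 1. The mean SM08502 change of NR3C1 lay between -0.0301 and 0.0151, of RARA between -0.225 and 0.0886 and of VDR between -0.0743 and 0.0997, and RARA in SNGM minus Ishikawa between -0.128 and 0.464.

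The replicate numbers gave no uniform sign of pairing. Deviations of same-numbered samples correlated between -0.65 and 0.84 in SNGM, -0.57 and 0.86 in Ishikawa, -0.15 and 0.33 in HEC265 and -0.12 and 0.14 in Ishikawa-S33Y. Of 6 pairs per line, 2, 3, 1 and 2 were above 0.1 in the same order. With signs so mixed, the check cannot tell whether the samples were paired. With the replicate block, the combination called 3 of the 7 genes as the mean over lines, against 2, NR2F2 being added (limma adjusted p = 0.0433), and no other count of the 7 genes changed.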
